A study of Macaca mulatta with 8 samples.

Results

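The Musashi genes MSI1 and MSI2 were described by the open chromatin regions at their loci in cortex cells of the rhesus macaque. A locus was the gene body plus 5 kb upstream in the NCBI annotation of the Mmul_10 assembly, the assembly that rheMac10 names. Members were chosen by position: all merged regions that overlapped a locus and held at least 1 peak of a macaque stage were taken. This gave 6 regions at MSI1 and 65 at MSI2, or 71 of 72358 in the series. The assay was ATAC-seq, which maps accessible chromatin from the cuts of a transposase. The primary cells of the developing cortex came from day 50 after conception (E50), day 60 (E60), day 80 (E80) and day 85 (E85). They had been dissociated from frozen tissue and grown in a progenitor-enriching medium with FGF2, EGF and BDNF, and no stage had any other treatment, per the labels' protocols. Each stage was 1 culture with 2 technical libraries, 8 libraries in all, so no difference between stages has a replicate culture. The unit is the peak call: a region was either called at a stage or not, and read depth was not used here. The genes were selected on their stage calls, peak positions, widths and lifted peaks, all known beforehand, so these values are descriptions and carry no test.

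Musashi proteins bind short motifs in messenger RNAs through RNA recognition motifs, and so alter the translation of their targets. In the developing brain they are known from neural stem and progenitor cells, where MSI1 represses NUMB, an inhibitor of Notch signalling. MSI2 is a close relative that overlaps with MSI1 in these cells, and is also known for its part in blood stem cells. None of these functions was measured here.

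The genes share their exon structure and differ in size. MSI1 lies on the minus strand of chromosome 11 from 120123826 to 120152072, a gene of 28.2 kb with 4 annotated transcripts. MSI2 lies on the minus strand of chromosome 16 from 39118886 to 39552607, 434 kb with 12 annotated transcripts. Transcript variant X1 has 15 exons in both, and 7 of them, exons 2 to 8, have the same length in both genes. These 7 exons measure 41, 82, 85, 42, 93, 49 and 83 bp. The difference in gene size is in the introns: introns 5, 6 and 7 of MSI2 span 142, 127 and 68.2 kb, and those of MSI1 span 1.56, 3.97 and 1.13 kb. Below, regions are numbered from the gene start in the direction of transcription, and introns follow variant X1.

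Of the 6 MSI1 regions, 1 was called at all 4 stages (16.7%), where 23.5% of all regions were. This was MSI1-5 in intron 6, chr11:120144149-120145275, 1127 bp wide and centred 7.36 kb from the gene start. Its central 200 bases, chr11:120144612-120144811 on the plus strand, are shown because they hold an RFX motif in both orientations. RFX factors bind the X-box, a palindromic element common in genes of cilia. Capitals mark RFX, whose matches on the 2 strands overlap in 1 palindrome, and the E-box CAGCTG. These are 2 of 10 motifs searched on both strands. The others were AP-1 (TGACTCA), TEAD (ACATTCC), homeobox (TAATTA), SOX (ACAATG or ACAAAG), POU (ATGCAAAT), KLF/SP (GGGCGG) and NFI and CTCF, which like RFX are longer and given by name.
MSI1-5: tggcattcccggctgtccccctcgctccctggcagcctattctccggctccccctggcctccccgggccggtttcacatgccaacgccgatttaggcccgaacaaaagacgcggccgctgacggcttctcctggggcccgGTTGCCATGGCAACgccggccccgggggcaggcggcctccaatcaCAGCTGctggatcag
Within 150 bp of the centre, 1 of 6 MSI1 regions and 1 of 65 MSI2 regions (MSI2-64, intron 12) held the RFX motif, against 0.909% of all regions. The 150 bp on each side of the MSI1-5 centre were 70.4% G and C, against a median of 52.2% over all regions. A match is a description of the letters, and binding was not measured.

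The MSI1 regions lay from the gene start to exon 9 and its surrounds, and all 6 were called at both E60 and E80. The E50 culture had 1 of the 6 and the E85 culture 2. Over all 72358 regions the called shares were 26% (E50), 82.8% (E60), 80.3% (E80) and 40.1% (E85). MSI1 and the whole table thus had most calls at E60 and E80 and fewest at E50. Calls at E60 and not E80 made up 17.4% of all regions, and those at E80 and not E60 14.9%, where MSI1 had none of either. The region over the gene start, MSI1-1 (chr11:120151500-120152293, exons 1 and 2), was called at E60, E80 and E85 and not at E50. Of 21122 protein-coding genes, 44.3% had a call within 1000 bp of a transcription start at E50, against 64.7% (E60), 63.2% (E80) and 53% (E85). MSI1-2 (chr11:120149311-120151346, exons 3 and 4 and adjoining introns) was the widest of the 6 at 2036 bp, and held 1 peak of E60 and 2 of E80. MSI1-3 (321 bp, intron 4), MSI1-4 (583 bp, intron 5) and MSI1-6 (637 bp, exon 9 and its surrounds) were also called at E60 and E80 alone. From 120123826 to 120139451, the last 15.6 kb of the gene, no region was called.

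**Figure D1:**
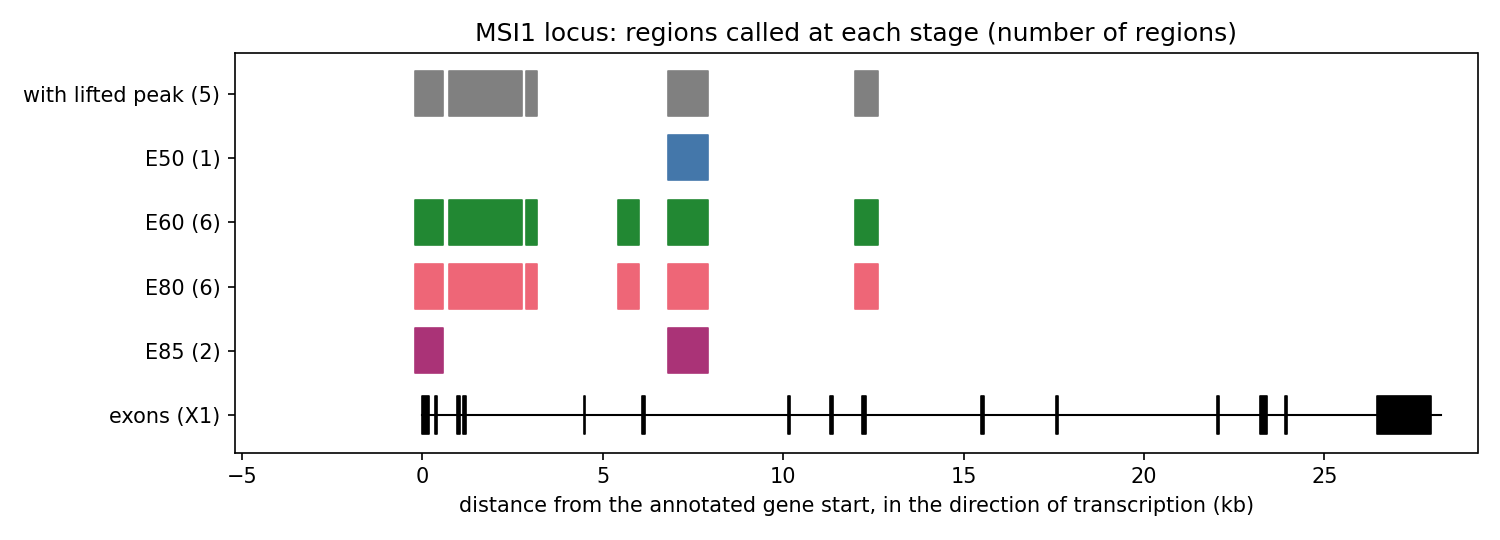
Regions of the MSI1 locus by distance from the annotated gene start (kb, x axis), with 1 row per stage, a row for regions that also hold a lifted peak, and the exons of variant X1. Each bar is a whole merged region; all 6 regions appear in the E60 and E80 rows, 2 in the E85 row and 1 in the E50 row.

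MSI2 held the most regions of the 16325 protein-coding loci that had one, where the median was 2. Of its 65 regions, 21 (32.3%) were called in the E50 culture, 61 (93.8%) in E60, 47 (72.3%) in E80 and 24 (36.9%) in E85. The E60 and E50 shares were above those of all regions (82.8% and 26%), and the E80 and E85 shares below (80.3% and 40.1%). The order of the stages was the same as in the whole sets. All regions are an unlike background here, since 23.2% of them lay within 1000 bp of a transcription start, against 1 of the 65. Among the 216 loci with at least 20 regions, MSI2 stood 17th from the highest in its E50 share, 28th in E60, 87th in E85 and 152nd in E80. The medians of these loci were 18.4% (E50), 83.3% (E60), 78.0% (E80) and 33.3% (E85). The E85 share of MSI2 was thus above that median, though below the share of all regions. Per 100 kb MSI2 had 14.8 regions, 18th of the 3206 loci of at least 100 kb that held a region, where the median was 2.51. MSI1 had 18.0 per 100 kb, 180th of the 4825 loci of 20 to 50 kb that held a region, with a median of 4.93.

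Apart from 4 E80 regions, the calls at MSI2 were nested within those of E60. All 21 E50 regions and all 24 E85 regions were also called at E60, and so were 43 of the 47 E80 regions. Over the series, regions called at E50 and not E60 made up 1.54% of all regions, and those called at E85 and not E60 3.53%, so a count of 0 in 65 is near the background. Of the 65 regions, 19 were called at all 4 stages, 18 at E60 and E80 alone, 17 at E60 alone, 5 at all but E50 and 4 at E80 alone. A further region was called at E50 and E60 alone (MSI2-40), and another at all but E85 (MSI2-27). As shares of the locus the leading 5 were 29.2%, 27.7%, 26.2%, 7.69% and 6.15%. Over all regions they were 23.5%, 29.4%, 16.4%, 12.1% and 13.3%. All but 1 of the 65 regions were distal, that is, over 1000 bp from a transcription start. Among all distal regions, 15.2% were called at all 4 stages, 11.5% at all but E50 and 16.3% at E80 alone. The distal share at E60 alone lay between those of all regions and MSI2. At E60 and E80 alone the distal share was above both. Over the series the E50 and E60 pair alone made up 0.0954% of regions, and the combination of all but E85 0.48%.

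**Figure D2:**
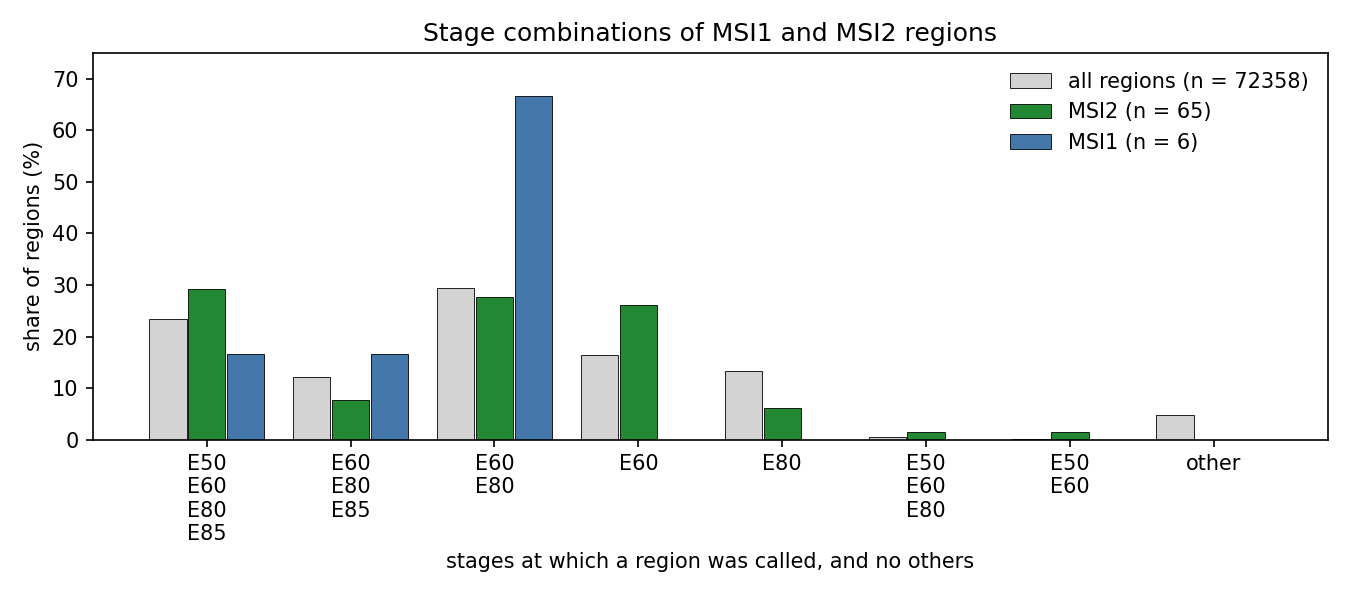
Share of regions (%, y axis) in each combination of stages (x axis) for all 72358 regions, the 65 of MSI2 and the 6 of MSI1, with rarer combinations pooled as other. MSI2 has a taller bar than all regions at E60 alone (26.2% against 16.4%) and a shorter one at E80 alone (6.15% against 13.3%), and MSI1 has no region in either. Against distal regions, which are not plotted, the E60-alone difference of MSI2 is smaller and the E80-alone difference larger.

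E60 and E80, whose peak sets were close in size (61956 and 60278 peaks), differed at MSI2 in 22 regions. The locus had 18 regions called at E60 and not E80, 27.7% of its 65, where the share over all regions was 17.4%. It had 4 called at E80 and not E60, 6.15%, where the share over all regions was 14.9%. The E60 side thus held 81.8% of the 22 regions, and MSI2 stood 12th of the 103 loci with at least 20 regions and 10 such differences, where the median was 56.2%. Among the 24 MSI2 regions without a lifted peak the split was 7 to 4, or 63.6% on the E60 side, against 44.9% over all such regions and 53.9% over all regions, lifted or not. Early-only regions (E50 or E60, neither E80 nor E85) were the same 18, against 16.8% of all regions, and late-only regions the same 4, against 15.6%. From E50 to E60 the locus had 40 regions called at E60 and not E50 (61.5%, and 58.4% of all regions) and 0 the other way. Between the older pair, 23 regions were called at E80 and not E85 (35.4%, and 43.2% of all regions) and 0 at E85 and not E80 (2.91% of all regions). Of comparisons further apart in time, 37 regions were called at E60 and not E85 (56.9%, and 46.3% of all regions). At E80 and not E50, 27 were called (41.5%, and 55.7% of all regions). At E85 and not E50, 5 were called (7.69%, and 15% of all regions). These sets overlap, since regions called at E60 and E80 alone are in both the 37 and the 27. In these bulk cultures fewer cells with a region open and less opening per cell cannot be told apart. MSI1 had 0 regions on either side of the E60 and E80 comparison.

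Peak names carry a running number for each stage. Over all regions, 8930 to 11832 numbers were missing at a stage, and none was missing inside either locus. When the numbers were given is not stated, so peaks removed before numbering would not show. The E50 peaks at MSI2 ran from number 8776 to 8798 with none missing, 23 peaks in order along the chromosome. The same was true of 62 peaks at E60, 48 at E80 and 27 at E85, and of the 1, 6, 7 and 2 peaks at MSI1. Whether a region without a call fell just short of the caller's threshold was not tested.

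**Figure D3:**
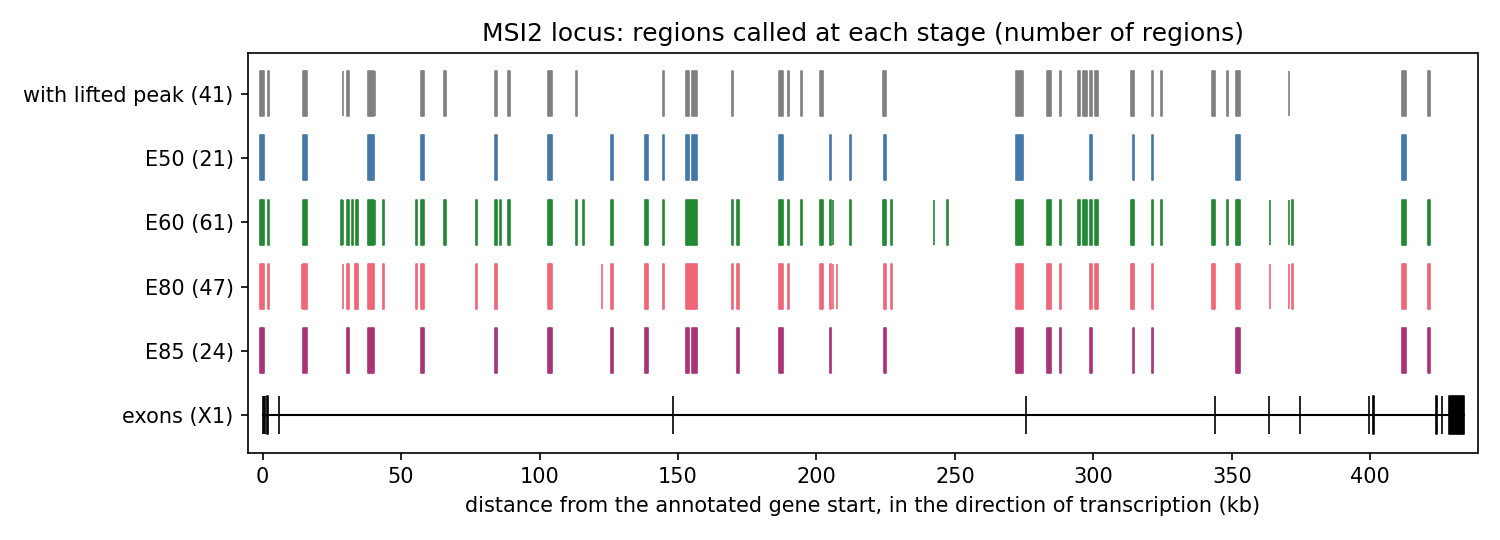
Regions of the MSI2 locus by distance from the annotated gene start (kb, x axis), with 1 row per stage, a row for regions that also hold a lifted peak, and the exons of variant X1. Each bar is a whole merged region; the E60 row holds 61 of the 65, and the E50 and E85 rows hold 21 and 24 that all reappear in it.

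The MSI2 regions were almost all in introns, and 56 of the 65 were in introns 5 to 7. Only 2 overlapped an annotated exon (MSI2-1 and MSI2-2), against 3 of the 6 at MSI1. The region over the gene start, MSI2-1 (chr16:39552111-39553374), was called at all 4 stages and was the only one of the 65 within 1000 bp of an annotated start, where 23.2% of all regions were. Intron 5 held 25 regions, of which 8 were called in the E50 culture, 22 in E60, 17 in E80 and 8 in E85. Intron 6 held 19, with 7, 18, 14 and 7 called in that order. Intron 7 held 12, with 3, 12, 8 and 5. In each of the 3 introns E60 had the most calls. The density in the 3 introns was 17.6, 14.9 and 17.6 regions per 100 kb. Intron 10, of 25.0 kb, held none, and the longest stretch without a region was 39.4 kb, from 39141117 to 39180506. Regions called at E60 alone were spread over introns 5 (8 regions), 6 (4), 7 (4) and 8 (1). The 3 regions of intron 9 were all called at E60 and E80 alone. The 4 E80-alone regions were in introns 5 (3) and 6 (1), centred 14.2 to 207 kb from the gene start.

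The outermost members were MSI2-65, 421 kb from the gene start, and MSI1-6, 12.3 kb from it. The nearest stage regions outside the MSI2 locus were 41.4 kb past the gene end and 40.2 kb beyond its upstream edge, and both were called at E60 and E80 alone. At MSI1 they were 13.4 kb past the gene end (E60 and E80) and 23.1 kb beyond the upstream edge (E60, E80 and E85). No region lay between the gene start regions and the 5 kb limit. The neighbouring genes held 0 to 3 regions, where the median over loci with a region was 2. PLA2G1B, a secreted phospholipase gene beside MSI1, had 1 region, and LOC696956 on the other side had 3. AKAP1, which encodes an anchoring protein of mitochondria, lies 135 kb from MSI2 and had 3 regions, and CCDC182 had none. Each of the 7 regions at these 4 neighbours was called at both E60 and E80. Of all regions, 17.4% were called at E60 and not E80 and 14.9% at E80 and not E60.

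Regions called at all 4 stages were the widest by median. The 19 MSI2 regions called at all 4 stages had a median width of 1264 bp, from 334 to 2430 bp. The 18 called at E60 and E80 alone had a median of 345.5 bp, the 17 called at E60 alone 358 bp (205 to 1018 bp), and the 4 called at E80 alone 198 bp (185 to 226 bp). The E80-alone regions lay within the range of the E60-alone ones or below it. Of the 14 regions wider than 1 kb, 11 were called at all 4 stages. None of the 11 narrower than 250 bp was, and 9 of them were called at 1 stage alone. The whole series also ran from all 4 stages down to E80 alone, with medians of 1005 bp at all 4 stages, 430 bp at E60 and E80 alone, 345 bp at E60 alone and 273 bp at E80 alone. At MSI2 the E60-alone median was slightly above that of E60 and E80 alone, and in the series below it. Width is that of the merged region, which joins peaks of several sets. The widest MSI2 region, MSI2-46 (chr16:39278181-39280610, intron 6), held 1 peak each of E50 and E60 and 2 each of E80 and E85.

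**Figure D4:**
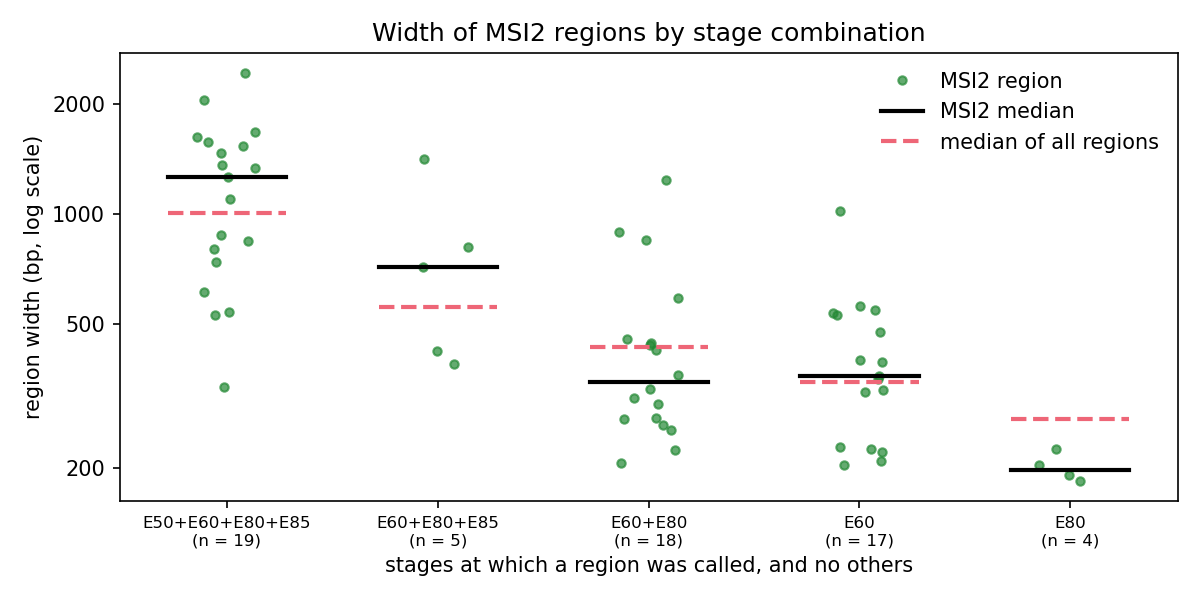
Width of each MSI2 region (bp, log scale, y axis) by the stages at which it was called (x axis), with the MSI2 median as a solid line and the median of all regions of that combination as a dashed line. The median falls from 1264 bp for the 19 regions called at all 4 stages to 198 bp for the 4 called at E80 alone.

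Of the 64 pairs of neighbouring regions at MSI2, 12 were less than 1 kb apart, and in 11 of them the 2 regions were called at different stages. The E60-alone regions were a median of 4.14 kb from the nearest region called at all 4 stages (193 to 21999 bp), the E80-alone regions 2.51 kb (209 to 4584 bp), and those called at E60 and E80 alone 2.85 kb. MSI2-12, called at E60 alone, lay 193 bp from MSI2-11, which was called at all 4 stages and was 2053 bp wide. MSI2-3, called at E80 alone, lay 209 bp from MSI2-4, which was called at all 4 stages. No value over the whole series is set beside these pair counts and distances. They describe the locus and are not read as a trait particular to it.

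The regions that set E60 and E80 apart are shown by their central bases, on the plus strand of Mmul_10, with capitals at matches of the 10 motifs. First come all 4 regions called at E80 alone, since they are the complete E80-specific set of the locus. They are MSI2-3 (chr16:39538341-39538532) and MSI2-39 (chr16:39345154-39345338), printed whole, and the centres of MSI2-9 (chr16:39518973-39519172) and MSI2-24 (chr16:39429962-39430161).
MSI2-3: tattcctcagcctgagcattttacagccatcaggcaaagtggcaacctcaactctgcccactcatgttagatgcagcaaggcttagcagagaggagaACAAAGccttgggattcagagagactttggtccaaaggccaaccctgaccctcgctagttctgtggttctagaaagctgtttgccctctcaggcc
MSI2-9: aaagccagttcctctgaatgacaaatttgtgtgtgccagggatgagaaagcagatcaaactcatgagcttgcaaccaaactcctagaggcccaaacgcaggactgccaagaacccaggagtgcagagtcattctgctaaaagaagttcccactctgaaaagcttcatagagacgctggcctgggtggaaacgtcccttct
MSI2-24: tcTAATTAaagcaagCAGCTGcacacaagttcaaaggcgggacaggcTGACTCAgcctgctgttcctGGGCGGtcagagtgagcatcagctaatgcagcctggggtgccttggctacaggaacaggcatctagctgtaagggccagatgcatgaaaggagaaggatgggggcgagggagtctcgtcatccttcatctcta
MSI2-39: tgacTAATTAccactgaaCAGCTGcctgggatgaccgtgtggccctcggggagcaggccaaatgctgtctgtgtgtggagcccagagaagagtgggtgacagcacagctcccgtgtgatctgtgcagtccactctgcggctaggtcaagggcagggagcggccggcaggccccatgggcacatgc
Within the printed bases MSI2-24 held AP-1, homeobox, E-box and KLF/SP matches, MSI2-39 homeobox and E-box, MSI2-3 a SOX match, and MSI2-9 none. None of the 4 held a lifted peak, where the share over all E80-alone regions was 27.9%.

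Of the E60 side, 4 regions are shown, picked after their values were seen. MSI2-5 (chr16:39523967-39524166) and MSI2-8 (chr16:39520023-39520222) are the E60-alone regions nearest to the E80-alone region MSI2-9, and MSI2-8 is 834 bp from it. MSI2-16 (chr16:39486630-39486829) is the E60-alone region with peaks of all 4 lifted sets. MSI2-40 (chr16:39340177-39340376) is the region called at E50 and E60 and at neither later stage.
MSI2-5: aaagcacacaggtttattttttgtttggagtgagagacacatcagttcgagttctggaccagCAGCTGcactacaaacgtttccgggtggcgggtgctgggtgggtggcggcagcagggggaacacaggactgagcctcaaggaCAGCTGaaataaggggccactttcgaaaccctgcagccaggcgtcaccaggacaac
MSI2-8: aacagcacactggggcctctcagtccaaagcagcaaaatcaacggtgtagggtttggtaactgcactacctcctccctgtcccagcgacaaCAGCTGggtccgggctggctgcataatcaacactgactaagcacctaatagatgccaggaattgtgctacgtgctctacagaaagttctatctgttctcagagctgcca
MSI2-16: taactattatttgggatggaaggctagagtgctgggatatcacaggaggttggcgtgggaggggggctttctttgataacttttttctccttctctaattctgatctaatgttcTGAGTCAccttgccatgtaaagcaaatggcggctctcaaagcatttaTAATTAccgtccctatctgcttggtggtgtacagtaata
MSI2-40: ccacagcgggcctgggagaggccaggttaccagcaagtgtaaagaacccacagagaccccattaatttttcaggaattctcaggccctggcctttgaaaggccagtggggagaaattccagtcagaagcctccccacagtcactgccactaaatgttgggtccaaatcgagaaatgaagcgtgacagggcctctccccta
MSI2-5 held 2 E-box matches and MSI2-8 held 1. MSI2-16 held an AP-1 match and a homeobox match, and MSI2-40 had no match in the printed bases. The wider window of MSI2-40, 150 bp on each side of its centre, held homeobox, E-box and POU matches.

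Across the locus the motifs were described by the share of regions with a match within 150 bp of the centre. This window runs past the edges of narrow regions, so a counted match can lie outside the called bases. MSI2-39, called at E80 alone and 185 bp wide, was counted for AP-1 and SOX by matches outside its bases. AP-1, the site of FOS and JUN dimers, was in 11 of 65 MSI2 regions (16.9%), against 21.1% of all regions and 25.7% of distal ones, those over 1000 bp from a transcription start. It was in 6 of the 18 regions called at E60 and E80 alone, 2 of the 17 called at E60 alone, 2 of the 4 called at E80 alone and 1 of the 19 called at all 4 stages. In the series the shares in these combinations were 29.0%, 10.9%, 43.0% and 11.1%. The homeobox motif TAATTA was in 12 MSI2 regions (18.5%), against 8.29% of all regions and 10.1% of distal ones. With 75 bp on each side the homeobox share was 4.62% at MSI2, 4.58% over all regions and 5.61% over distal ones, so the difference was present in the wider window alone. SOX motifs were in 26 (40.0%), against 35.1% of all and 40.4% of distal regions. The E-box was in 12 (18.5%), against 24.4% of all and 25.9% of distal regions. KLF/SP was in 7 (10.8%), against 25.9% of all and 15.0% of distal regions. POU was in 4 (6.15%), against 2.80% of all and 3.37% of distal regions, and with 75 bp in 1.54% against 1.53% of all regions. TEAD was in 2 (3.08%), against 5.42% of all and 6.34% of distal regions, and RFX in 1. NFI and CTCF motifs were in none, and in 0.167% and 1.07% of all regions. The windows of MSI2 regions had a median of 50.2% G and C, against 52.2% over all regions and 49.2% over distal ones. Regions of 1 locus are not replicates, and counts this small do not set MSI2 apart from other loci.

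Lifted peaks, from 4 sets that the labels do not define, were present at MSI2 about as often as over all regions. Of the 65 regions 41 held at least 1 (63.1%), and the share was 63.3% over all regions and 56.1% over distal ones. They were in 16 of the 19 regions called at all 4 stages, 11 of the 17 called at E60 alone, 9 of the 18 called at E60 and E80 alone and 0 of the 4 called at E80 alone. In the series these shares were 89.8%, 50.7%, 61.0% and 27.9%, and among distal regions 83.0%, 49.3%, 56.8% and 27.5%. Peaks of all 4 lifted sets were in 18 MSI2 regions (27.7%), against 27.0% of all regions. Another 21 regions at the locus held lifted peaks alone, 24.4% of the 86 in all, where the share over the whole table was 35.8%. At MSI1, 5 of the 6 regions held a lifted peak and no region held lifted peaks alone.

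The loci most like MSI2 in their mix of stage combinations were NAV1, SOX6, RERE, CREB5 and DLGAP1. Likeness was the sum of absolute differences in the share of regions over the 15 combinations of the 4 stages, among 215 other loci with at least 20 regions. It was 0.114 for NAV1, a neuron navigator gene, and 0.200 for SOX6, a transcription factor gene. RERE, a transcriptional corepressor gene, was at 0.245, CREB5 at 0.252 and DLGAP1, a postsynaptic scaffold gene, at 0.261. The median over the 215 was 0.540. NAV1 had 36 regions, with 10 (E50), 33 (E60), 27 (E80) and 14 (E85) called. It had 9 regions called at E60 and not E80 and 3 the other way. SOX6 and RERE each had 6 and 2, CREB5 had 5 and 1, and DLGAP1 had 8 and 3. These loci were picked for stage combinations like those of MSI2, so their lean to E60 follows from that choice. For MSI1, ILDR2 was nearest among the 2765 loci with 4 to 8 regions (0.0952), and 15 loci tied at the fifth place, so no other is named.

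Genes related to Musashi by sequence or function were compared by their own region counts. The 9 relatives with RNA recognition motifs (such as HNRNPA1, HNRNPD and TARDBP, proteins of RNA processing) had a median of 1 region. Of these, 1 had more regions called at E60 and not E80 than the reverse (DAZAP1, with 1 against 0), and 8 had equal numbers. Among all 16325 loci, 20.2% had more on the E60 side, 17.2% more on the E80 side and 62.5% equal numbers. Promoters of 7 of the 9 were called at E50 and of 8 at each other stage. Over all protein-coding genes the shares were 44.3% (E50), 64.7% (E60), 63.2% (E80) and 53% (E85). Reported Musashi targets and partners had 15 regions on each side. Of the 18 genes, 4 leaned to E60, 3 to E80, and 10 of the 17 with regions had equal numbers. DCX, a microtubule protein of migrating neurons, had 4 against 0. APP, the amyloid precursor gene, and SMAD3, a TGF-beta effector gene, each had 1 against 4. NUMB, the best-known target, had 5 regions, 1 on each side, and a promoter call at all 4 stages. The other genes that leaned were TTYH1, JAG1 and MAPT to E60 and MCPH1 to E80, each by 1 region. HOXA9 had no region.

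RNA-binding genes of progenitors were split evenly. Of the 14, 3 leaned to E60, 3 to E80 and 8 had equal numbers, with 8 regions against 7 in all. PUM2, a Pumilio translational repressor gene, had 3 against 1, TRIM71 had 2 against 0 and QKI had 2 against 1. Their difference from MSI2 was not tested.

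Of the 18 neuronal RNA-binding genes, 12 leaned to E60, 2 to E80 and 4 had equal numbers. In all they had 61 regions called at E60 and not E80 and 17 the other way, so 78.2% were on the E60 side, against 54.8% summed over all loci. Their median was 5 regions a locus, against 2 over all loci. CELF4, an RNA-binding splicing factor gene, had 13 against 0 and RBFOX1, a neuronal splicing regulator gene, 12 against 0. ELAVL4, an RNA-stabilising Hu protein gene, had 5 against 1. Its relative ELAVL2 and SRRM4, a neuronal microexon regulator gene, each had 4 against 0. The 2 genes on the E80 side were RBFOX2, with 0 against 3, and KHDRBS3, with 0 against 2. The promoter was called for 10 of the 18 in the E50 culture, 17 in E60, 16 in E80 and 10 in E85. Over all protein-coding genes these shares were 44.3%, 64.7%, 63.2% and 53%, also highest at E60 and E80. The list was drawn up with results of these data known, so it is not independent evidence of a direction.

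**Figure D5:**
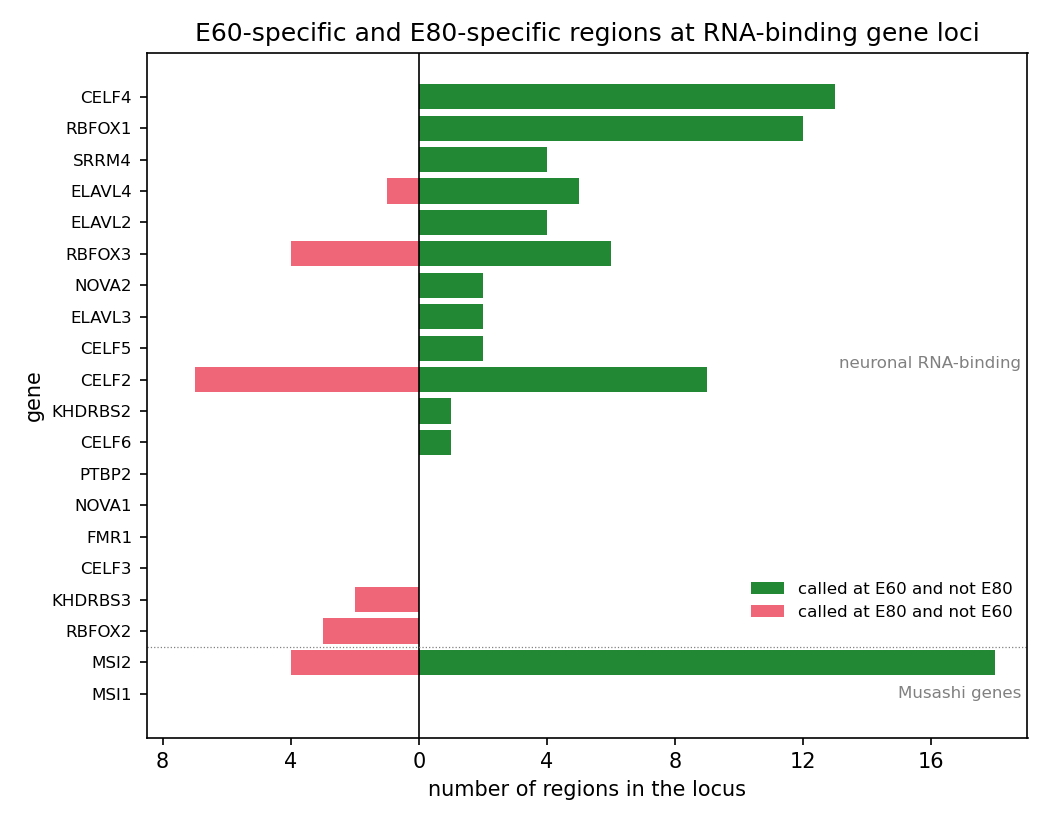
Number of regions called at E60 and not E80 (bars to the right) and at E80 and not E60 (bars to the left) at the loci of MSI1, MSI2 and 18 neuronal RNA-binding genes. MSI2 has the longest bar of those plotted, 18 against 4, CELF4 has 13 against 0, and MSI1 has none.

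Promoter calls of marker genes were checked against the labelled tissue. All 8 radial glia genes had a promoter call at every stage, and the 5 telencephalon genes had 3, 4, 5 and 4 at E50, E60, E80 and E85. The 6 neuronal genes had 1, 5, 4 and 1. Over all protein-coding genes the shares with a promoter call were 44.3%, 64.7%, 63.2% and 53% in that order. E60 and E80, where most neuronal genes were called, are also the stages with the largest peak sets and the most MSI2 regions. None of the 6 microglia genes was called at any stage, and 0 to 2 of 5 endothelial and 1 to 2 of 5 mesenchymal genes were. The part of neurons in the MSI2 counts was not tested.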

How the data were processed

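ATAC-seq of 8 libraries gave a headerless table of 112696 merged regions, which the authors deposited. SAMtools 1.15, cutadapt 4.4, Bowtie2 2.5.1 and the build rheMac10 are listed, without roles, per the submitters' processing notes. How peaks were called, at which threshold, with what transposase offset and whether on pooled libraries is not given in the sources used here. Deposited peak names carry a code that matches the stage in the labels, and 72358 regions held a stage peak. The 8 columns of values carry no names and were not used, so the count test that had been planned was not run, and depth per sample is unknown here. Deposited starts count from 0 (8 equal 0), so 1 was added, and no end lay beyond its sequence.

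Regions were assigned to 21122 protein-coding loci and annotated from the NCBI models of Mmul_10. Stage calls, stage combinations, widths, lifted peaks and motifs were counted, with no test. The members and lists were chosen with earlier results of these data known. Named genes were the 5 nearest to MSI2 by stage combination, up to 4 members of each list with the largest E60 and E80 difference, and the nearest gene on each side. NUMB was named for its known role, and genes outside the rule were named after their values were seen. Some genes and sequences are not reported here. Alternatives were other locus bounds, peaks in place of regions, width, lifted and distal filters, cultures left out, and other promoter and motif windows. The counting was tested on simulated data. Python 3.11.15, pandas 2.3.3, NumPy 2.4.6, SciPy 1.17.1, pysam 0.24.0 and matplotlib 3.10.9 were used.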

Additional observations from a re-analysis of the deposited data

How the results depend on the processing

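Of 152 values under the alternatives for 28 results, 128 stayed within the limits set (1.5 times a count, or the exact 95% binomial interval of a share) and 24 moved. None moved with the gene body alone, 10 kb upstream, region centres, single peaks, other promoter windows, 250 bp motif windows, or without the E50 or E85 culture. Leaving out the E60 culture gave MSI2 1 early-only region and 27 late-only, and MSI1 5 late-only. Leaving out the E80 culture gave MSI2 37 early-only regions and 0 late-only, and MSI1 4 early-only. Without E60 the early side was the E50 set alone, of 19833 peaks, against 60278 for E80. Without E80 the late side was the E85 set alone, of 30701 peaks, against 61956 for E60. Of all regions, 55.7% were called at E80 and not E50, and 46.3% at E60 and not E85. Between sets so unequal in size, these omissions cannot decide a direction for either gene. The direction at MSI2 is thus described from E60 against E80 alone. Among regions of at most 1 kb, MSI2 had 10 at E50 and 12 at E85, and MSI1 had 0 and 1. Among regions without a lifted peak, MSI2 had 4, 20, 17 and 4 called at E50, E60, E80 and E85, 7 at E60 and not E80, and 7 early-only, and MSI1 had 0, 1, 1 and 0. The 4 regions called at E80 and not E60, also the late-only ones, all remained, so the E60 share of the split fell from 81.8% to 63.6%. Among distal regions MSI1 had 1 at E85. With 75 bp on each side, the shares of MSI2 regions with homeobox, SOX and POU motifs were 4.62%, 23.1% and 1.54%. At that width they were 4.58%, 21.2% and 1.53% of all regions, a background computed after the data were seen. No paired analysis was possible because the peak names carry no replicate number and the value columns no names. For the same reason no library could be left out, and the planned count tests were not run.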
